A study of Mus musculus with 6 samples.

Results

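The miR-30 family is a set of microRNAs encoded by 6 hairpin genes, and the 9 mature arms described here are the rows of the deposited miRNA table that bear a listed family name. All 9 listed names were found among the 1034 distinct mature miRNAs of the table, and all 9 were among the 670 that averaged 1 TPM or more (reads per miRNA divided by its length and set to a common library sum) that were tested. The 5 guide arms come from the 5p side of the hairpin (mmu-miR-30a-5p, mmu-miR-30b-5p, mmu-miR-30c-5p, mmu-miR-30d-5p and mmu-miR-30e-5p). The 4 passenger arms come from the 3p side (mmu-miR-30a-3p, mmu-miR-30c-2-3p, mmu-miR-30d-3p and mmu-miR-30e-3p). Where a name had more than 1 genomic row, the row of highest total was taken.

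The animals were CD1 mice of 2 stages, E14.5 in the embryo and P0 at birth, with 3 samples per stage. The labels name no mutation, transgene or drug for any sample. Each sample was a pool of the kidneys of 1 litter, from which cortical cells were freed by a brief enzyme digestion and nephron progenitors were captured on antibody beads against the surface integrin Itga8. The capture selects on 1 surface protein, the miRNA table holds no messenger RNA, and the progenitor identity of the captured cells was therefore not checked here against defining genes. The p-values measure the spread between these litter pools.

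MicroRNAs are short RNAs cut from a hairpin, of which usually 1 arm, the guide, is kept and pairs with messenger RNAs through its seed, bases 2 to 8, while the other arm is mostly degraded. The miR-30 guides are abundant in kidney epithelium and in podocytes. In frog embryos the family is known to repress Lhx1, a transcription factor of the forming nephron. Its targets were not analysed here.

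The mature sequences of the members are shown because the 3 guides printed share a seed, while the 3′ part of miR-30c-5p differs from that of miR-30a-5p and miR-30e-5p. Sequences were available for 6 of the 9 members from RefSeq (GRCm38.p6), and the seed is in capitals.
mmu-miR-30a-5p: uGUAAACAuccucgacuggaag
mmu-miR-30e-5p: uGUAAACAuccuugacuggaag
mmu-miR-30c-5p: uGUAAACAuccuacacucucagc
mmu-miR-30a-3p: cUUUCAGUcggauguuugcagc
mmu-miR-30e-3p: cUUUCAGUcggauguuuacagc
mmu-miR-30c-2-3p: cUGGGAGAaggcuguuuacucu

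The 3 guides printed share their first 12 bases. After these, the guides of miR-30a and miR-30e differ by 1 base (C13U, counted from the 5′ end, with the base of miR-30a first) and end in the same 9 bases, whereas the guide of miR-30c ends differently and is 23 rather than 22 bases long. The passenger arms of miR-30a and miR-30e also differ by 1 base (G18A) and have a seed of their own. Reads of miR-30a and miR-30e are therefore separated by a single base in each arm, and their division between the names depends on the authors' counting. mmu-miR-30b-5p, mmu-miR-30d-5p and mmu-miR-30d-3p are named only.

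The 6 hairpins lie in 3 neighbouring pairs (build mm10, with gene context from GENCODE M21 on GRCm38, which is the same assembly). Mir30a (chr1:23272269-23272339, plus strand) lies between annotated genes, 19361 bases from Mir30c-2 (chr1:23291701-23291784, plus strand), which overlaps an exon of the lincRNA Gm27028. Mir30e (chr4:120772606-120772697) and Mir30c-1 (chr4:120769534-120769622) lie 2983 bases apart on the minus strand, both in an intron of Nfyc, which encodes a subunit of the transcription factor NF-Y. Mir30d (chr15:68341208-68341289) overlaps an exon of the lincRNA Gm20732, and Mir30b (chr15:68337415-68337510) lies between annotated genes, 3697 bases away on the same minus strand. The guide miR-30c-5p is made by both Mir30c-1 and Mir30c-2. Its 2 rows differed by 0.426% to 0.912% of their reads in the 6 libraries, so the reads do not tell the 2 loci apart, and the chromosome 4 row was used.

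The libraries held 2649506 to 34934526 reads, recovered from the deposited values. The lowest read number of any member was 175, for miR-30d-3p in E14.5 replicate 1, so counting error was small for the guides. P0 replicate 1 stood apart from the other P0 libraries in most members, and the main results are given with and without it. It was singled out by these same values, so p-values without it follow a choice made on the outcome and are descriptive only. A typical miRNA was lower at P0 in TPM, with a median log2 fold change of −1.20 over the 670 tested. After median-of-ratios scaling, which divides each library by its median ratio to the average library, that median was −0.17. Each change is therefore given on both scales.

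The family as a whole had lower TPM at P0, but not beyond the spread between litters. In the order of replicates 1, 2 and 3, used throughout, the 5 guides summed to 38999, 21016 and 28790 TPM at E14.5 and to 24794, 8692 and 8659 TPM at P0. P0 replicate 1 lay within the E14.5 range, while the other P0 libraries lay below all E14.5 libraries. The stage means were 29602 ± 9019 TPM for E14.5 and 14048 ± 9306 TPM for P0 (SD, n = 3), a 2.11-fold difference. The log2 ratio of the P0 to the E14.5 mean was −1.08, and −1.77 without P0 replicate 1. The two-sided exact permutation p was 0.2, where 3 libraries against 3 allow no value under 0.1. After median-of-ratios scaling the log2 ratio of the P0 to the E14.5 mean of the guides was 0.08, so the direction of the sum depended on the scaling.

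The 4 passenger arms together were about an order of magnitude lower than the guides and ranged in the same way. They summed to 3894, 1825 and 2916 TPM at E14.5 and to 2241, 909 and 1127 TPM at P0, with the stages again overlapping through P0 replicate 1. Their exact two-sided permutation p was 0.2. The log2 ratio of the P0 to the E14.5 mean was −1.01 in TPM (−1.50 without P0 replicate 1) and 0.19 after scaling, so its direction depended on the scaling too.

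Among single members 2 guides fell in TPM, miR-30b-5p and miR-30c-5p, and no member rose. The 2 called members of 9 stand beside 32.8% of all 670 miRNAs called lower by limma (adjusted p under 0.05) and 1.34% called higher, so the family was not called more often than miRNAs in general. After median-of-ratios scaling 1 member, the guide miR-30d-5p, rose and none fell, beside 5.67% of all miRNAs called higher and 5.22% called lower. The median log2 fold change of the 9 members was −1.20 in TPM, equal to that of all miRNAs, and 0.10 after scaling, where that of all miRNAs was −0.17. The log2 fold changes of the members nevertheless spanned 3.51 in TPM, from −2.95 for miR-30b-5p to 0.56 for miR-30d-5p.

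**Figure D1:**
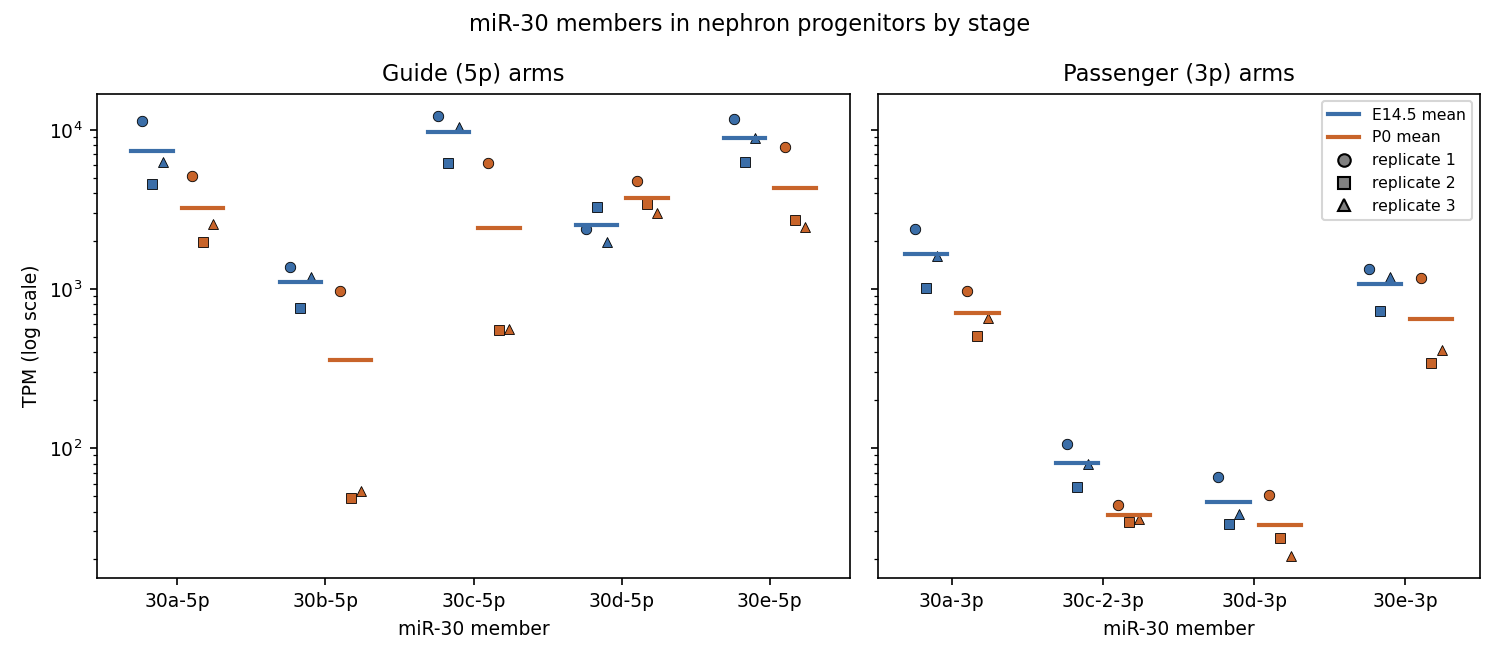
TPM on a log scale of the 5 guide arms (left) and 4 passenger arms (right) in each library, with E14.5 in blue, P0 in orange, a marker shape for each replicate and a bar for the stage mean. miR-30b-5p and miR-30c-5p are an order of magnitude lower in P0 replicates 2 and 3 than in the other 4 libraries, while miR-30d-5p lies between 1979 and 4753 TPM in all 6.

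miR-30c-5p was the most abundant guide at E14.5 and had the largest loss of TPM. It had 12296, 6203 and 10476 TPM at E14.5 and 6169, 556 and 562 TPM at P0. The stages did not overlap, although P0 replicate 1 lay only just below the lowest E14.5 library. The stage means were 9659 ± 3128 TPM for E14.5 and 2429 ± 3239 TPM for P0 (SD, n = 3), and P0 replicates 2 and 3 averaged 17.3-fold below the E14.5 mean. The log2 fold change was −2.90 (SE 0.80, adjusted p = 0.0165 by limma). After scaling it was −1.60 (SE 0.71, adjusted p = 0.143 by limma), on the same side of 0 but past no threshold. Without P0 replicate 1 it was −4.05 in TPM (adjusted p = 3.66e-06 by limma) and −2.52 after scaling (adjusted p = 0.000545 by limma). Among the leave-out fits in TPM, the call was lost without E14.5 replicate 1, without E14.5 replicate 3 and without P0 replicate 2, with adjusted limma p-values of 0.0631, 0.0754 and 0.0541. The log2 fold changes in these fits were −2.7, −2.8 and −2.3.

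miR-30b-5p, the least abundant guide, followed the same course at a lower level. It had 1368, 760.1 and 1184 TPM at E14.5 and 973, 48.6 and 53.9 TPM at P0. P0 replicate 1 lay inside the E14.5 range, and the other P0 libraries averaged 21.5-fold below the E14.5 mean of 1104 ± 312 TPM (SD, n = 3). The log2 fold change was −2.95 (SE 0.94, adjusted p = 0.0307 by limma), and after scaling −1.67 (SE 0.85, adjusted p = 0.187 by limma). Without P0 replicate 1 these became −4.36 (adjusted p = 3.66e-06 by limma) and −2.84 (adjusted p = 0.000343 by limma). Leaving out any other library ended the call in TPM, with adjusted p-values up to 0.110 by limma. The log2 fold change was then −2.21 in TPM and −1.07 after scaling without P0 replicate 2, and −2.29 and −1.08 without P0 replicate 3.

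miR-30d-5p, which lies beside miR-30b on chromosome 15, did not share this course. It had 2382, 3253 and 1979 TPM at E14.5 and 4753, 3401 and 3020 TPM at P0, so P0 replicate 1 was the highest library and the stages overlapped slightly. The means were 2538 ± 651 TPM in embryos and 3725 ± 911 TPM in newborns (SD, n = 3), and the log2 fold change was 0.56 (SE 0.46, adjusted p = 0.340 by limma). On the median-of-ratios scale, in TPM-like units, the values were 1571, 2215 and 1146 at E14.5 and 5381, 6544 and 5332 at P0. There every P0 library exceeded every E14.5 library, with a log2 fold change of 1.85 (SE 0.42, adjusted p = 0.0318 by limma). That call was kept without P0 replicate 1 (log2 fold change 1.90, adjusted p = 0.00194 by limma). It was lost when any other library was left out, with adjusted p-values up to 0.177 by limma. The log2 fold change stayed between 1.62 and 2.09 in the leave-out fits. Where the call was lost, 0 to 7 of all miRNAs were called.

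The guides miR-30a-5p and miR-30e-5p, which differ by 1 base, lay close to the typical miRNA on both scales. miR-30a-5p had 11281, 4560 and 6253 TPM at E14.5 and 5114, 1981 and 2568 TPM at P0. Its log2 fold change was −1.21 in TPM (SE 0.53, adjusted p = 0.0875 by limma) and 0.09 after scaling (SE 0.46, adjusted p = 0.906 by limma). miR-30e-5p had 11671, 6239 and 8898 TPM at E14.5 and 7784, 2706 and 2455 TPM at P0. Its log2 fold change was −1.22 in TPM (SE 0.53, adjusted p = 0.0891 by limma) and 0.08 after scaling (SE 0.45, adjusted p = 0.911 by limma). In both, P0 replicate 1 lay within the E14.5 range and the remaining P0 libraries lay below it. Without P0 replicate 1 both passed the threshold in TPM, at −1.60 (adjusted p = 0.00277 by limma) and −1.75 (adjusted p = 0.000466 by limma), and neither did after scaling.

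The order of the guides by TPM in P0 replicates 2 and 3 differed from that in the E14.5 libraries, while P0 replicate 1 had the order of E14.5 replicate 2. At E14.5 miR-30c-5p, miR-30e-5p and miR-30a-5p led with means of 9659, 8936 and 7365 TPM, which differed by less than their SDs, followed by miR-30d-5p at 2538 and miR-30b-5p at 1104. At P0 the means of miR-30e-5p, miR-30d-5p, miR-30a-5p and miR-30c-5p were 4315, 3725, 3221 and 2429 TPM, with SDs of 911 to 3239 TPM, and miR-30b-5p was last at 359. The value of miR-30c-5p is that of 1 of its 2 rows, which hold nearly the same read numbers. Its place by mean at P0 depends on that choice, as both rows together would place it higher. In P0 replicates 2 and 3 miR-30d-5p was the highest guide, and in the other 4 libraries miR-30c-5p or miR-30e-5p was.

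**Figure D2:**
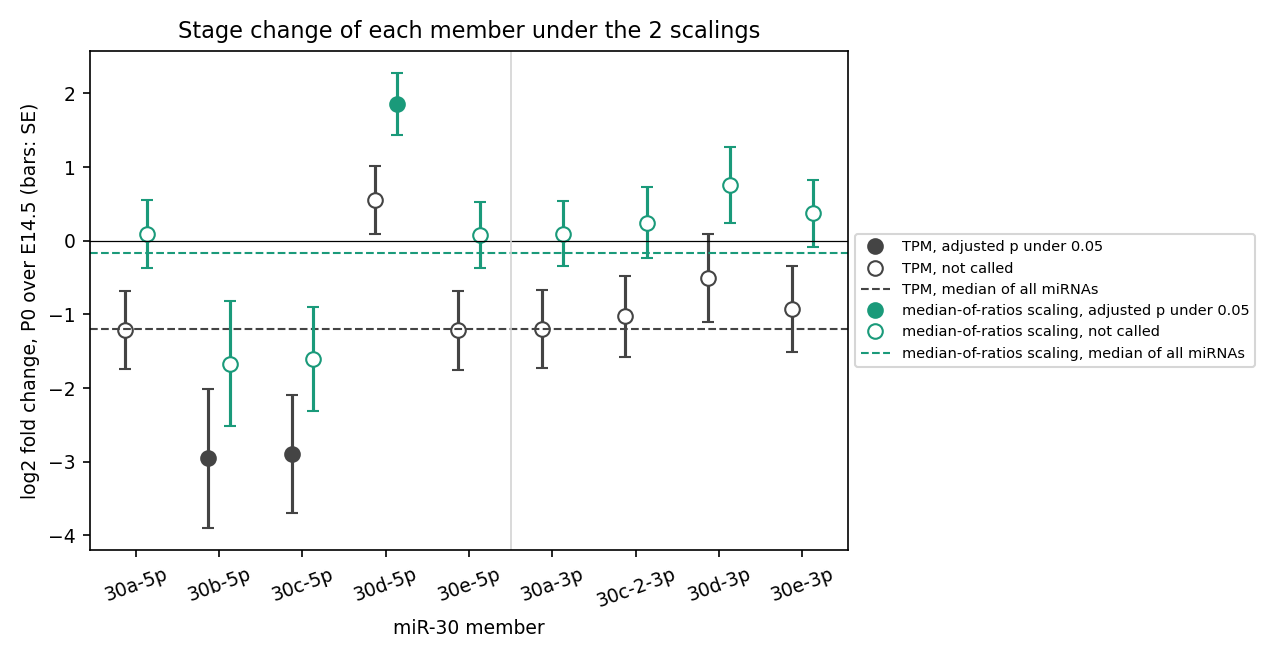
Log2 fold change of each member, P0 over E14.5, with its standard error, in TPM (grey) and after median-of-ratios scaling (green); filled points are called by limma, and dashed lines mark the median of all tested miRNAs. miR-30b-5p and miR-30c-5p lie below the median of all miRNAs and miR-30d-5p above it on both scales, and the error bars of miR-30a-5p, miR-30e-5p, miR-30a-3p and miR-30c-2-3p reach it on both.

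The passenger arms varied less than the guides, and none was called on either scale with all 6 libraries. miR-30a-3p had 2384, 1008 and 1615 TPM at E14.5 and 971, 505 and 654 TPM at P0, so that the stages did not overlap by a small margin. Its log2 fold change was −1.20 in TPM (adjusted p = 0.0893 by limma) and 0.10 after scaling (adjusted p = 0.896 by limma). miR-30c-2-3p, the passenger specific to Mir30c-2, had 106, 57.2 and 79.5 TPM at E14.5 and 44.1, 34.4 and 36.2 TPM at P0, without overlap. Its log2 fold change was −1.02 in TPM (adjusted p = 0.151 by limma) and 0.25 after scaling (adjusted p = 0.741 by limma), beside −2.90 and −1.60 for the guide that this hairpin shares with Mir30c-1.

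The other passengers overlapped between the stages. miR-30e-3p had 1339, 726 and 1183 TPM at E14.5 and 1176, 343 and 416 TPM at P0. Its log2 fold change was −0.92 in TPM (adjusted p = 0.216 by limma) and 0.37 after scaling (adjusted p = 0.590 by limma). miR-30d-3p, the scarcest member, had 66.3, 33.5 and 38.4 TPM at E14.5 and 50.6, 27.3 and 21.1 TPM at P0. Its log2 fold change was −0.50 in TPM (adjusted p = 0.498 by limma) and 0.76 after scaling (adjusted p = 0.321 by limma).

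Over all 9 members, the stage values did not overlap in TPM for 3 (miR-30a-3p, miR-30c-5p and miR-30c-2-3p), beside 49.6% of all tested miRNAs. After scaling they did not overlap for 1 (miR-30d-5p), beside 35.4% of all. Without P0 replicate 1, limma called 7 of the 9 lower in TPM, all but the arms of miR-30d, where 53.4% of all miRNAs were called lower and 7.76% higher. The 3 passengers among them had log2 fold changes of −1.45 (miR-30a-3p), −1.47 (miR-30e-3p) and −1.13 (miR-30c-2-3p). After scaling, the same 5 libraries gave 3 called members, with miR-30b-5p and miR-30c-5p lower and miR-30d-5p higher, where 26.0% of all miRNAs were called lower and 22.4% higher.

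Shares within the guide pool do not depend on how a library is scaled. miR-30c-5p made up 31.5%, 29.5% and 36.4% of the guide TPM at E14.5 and 24.9%, 6.39% and 6.50% at P0. miR-30d-5p made up 6.11%, 15.5% and 6.88% at E14.5 and 19.2%, 39.1% and 34.9% at P0. For both guides the stages did not overlap, and P0 replicate 1 lay nearest to the E14.5 libraries. The shares changed from 32.5% ± 3.53 to 12.6% ± 10.6 for miR-30c-5p and from 9.49% ± 5.20 to 31.1% ± 10.5 for miR-30d-5p (SD, n = 3).

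For the remaining guides the shares overlapped between the stages. miR-30b-5p averaged 3.75% ± 0.32 in E14.5 and 1.70% ± 1.93 in P0 libraries (SD, n = 3), with 3.93% in P0 replicate 1 and 0.560% and 0.622% in the others. The changes in share without P0 replicate 1 were −3.16 percentage points for miR-30b-5p, −26.0 for miR-30c-5p and 27.5 for miR-30d-5p, against −2.04, −19.9 and 21.6 with all libraries. miR-30e-5p had 30.2% ± 0.65 and 30.3% ± 1.69, and miR-30a-5p 24.1% ± 4.17 and 24.4% ± 4.72 (SD, n = 3). These shares rest on 1 of the 2 rows of miR-30c-5p, which hold nearly the same read numbers. With both rows summed, the miR-30c-5p share changed by −27.6 rather than −19.9 percentage points and the miR-30e-5p share by 4.22 rather than 0.12, without overlap between the stages for either (exact two-sided permutation p = 0.1 for both). The exact two-sided permutation p with 1 row was 0.1 for miR-30c-5p and miR-30d-5p, the smallest possible, and 0.3, 0.9 and 1 for miR-30b-5p, miR-30e-5p and miR-30a-5p. Adjusted by the Benjamini-Hochberg method over the 5 shares, the lowest exact permutation p was 0.25, and no share could have reached 0.05 in this design. In reads, the widest 95% Wilson interval of a single-library share was 0.568 percentage points, which covers counting error only.

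**Figure D3:**
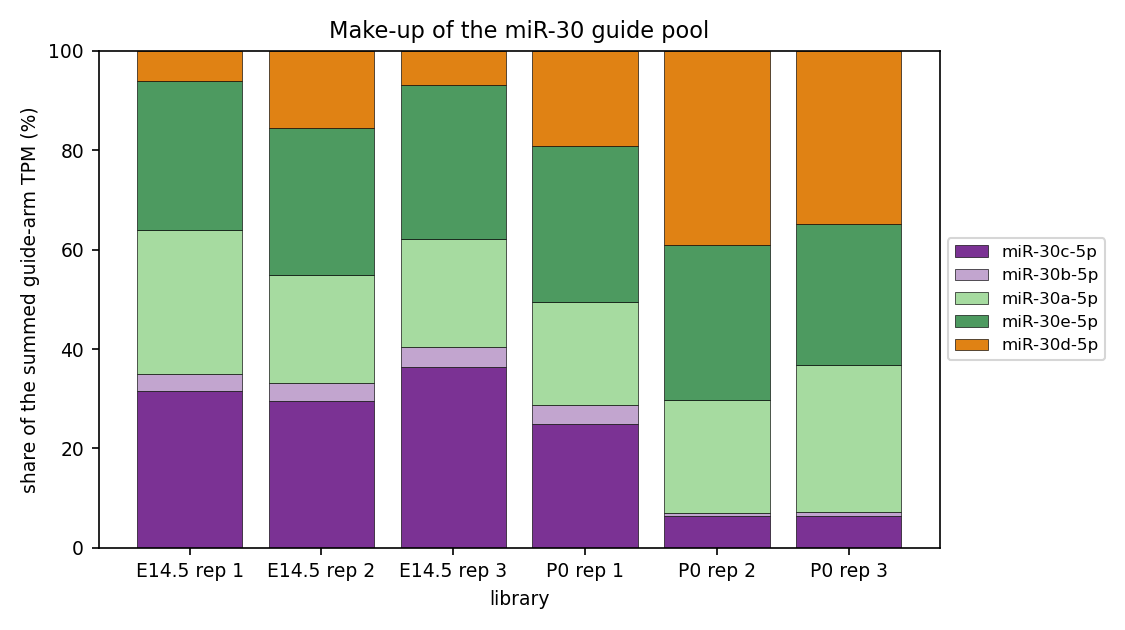
Stacked bars of the share of each guide arm in the summed guide-arm TPM of each library, in percent. The miR-30c-5p share is 24.9% or more in the E14.5 libraries and P0 replicate 1 and 6.39% and 6.50% in P0 replicates 2 and 3, where miR-30d-5p takes 39.1% and 34.9%.

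Neighbouring hairpins on chromosome 15 were compared in their guides and those on chromosome 1 in their passengers, so the 2 ratios are not alike. In TPM the chromosome 15 passengers miR-30b-3p (not a listed member) and miR-30d-3p had log2 fold changes of −0.96 and −0.50. The chromosome 1 guides miR-30a-5p and miR-30c-5p had −1.21 and −2.90, where miR-30c-5p is also made on chromosome 4. The chromosome 4 pair was not compared. The log2 ratio of miR-30b-5p to miR-30d-5p, from the 2 hairpins on chromosome 15, was −0.80, −2.10 and −0.74 at E14.5 and −2.29, −6.13 and −5.81 at P0. It was lower in every P0 library than in every E14.5 library, and its mean changed by −3.53, by −4.76 without P0 replicate 1 and by −2.84 without P0 replicate 2 (all 6 libraries: exact two-sided permutation p = 0.1, the smallest possible). The log2 ratio of the passengers miR-30a-3p and miR-30c-2-3p, from the pair on chromosome 1, averaged 4.33 ± 0.18 in the E14.5 and 4.17 ± 0.29 in the P0 libraries (SD, n = 3; exact two-sided permutation p = 0.6).

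The ratio of the 5p to the 3p arm was tested by limma over 146 hairpins. These were all the hairpins whose arms each had a mean of at least 10 TPM. At the miR-30 hairpins the 5p arm is the guide, which need not hold for the others. This ratio was formed as (5p + 1)/(3p + 1) in TPM within each library. Limma called 0 of the 146 hairpins (0%), while 51 had an unadjusted p under 0.05. Without P0 replicate 1, 84 hairpins were called (57.5%), among them 3 of the 6 of miR-30. The 3 were those of miR-30b and of miR-30c, of which the miR-30c ones share 1 guide value.

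At Mir30b the guide was 20.4, 13.7 and 21.8 times the passenger at E14.5 and 17.7, 2.46 and 2.22 times at P0. Its passenger miR-30b-3p, which is not among the 9 listed arms, had 66.3, 54.6 and 53.4 TPM at E14.5 and 53.9, 19.2 and 23.7 TPM at P0. P0 replicate 1 thus lay within the E14.5 range of ratios, and the other P0 libraries lay far below it. The log2 change of the ratio was −1.99 (SE 0.88, adjusted p = 0.145 by limma), and −2.96 without P0 replicate 1 (SE 0.35, adjusted p = 0.00116 by limma).

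At Mir30c-2 the ratio was 115, 107 and 130.2 at E14.5 and 137, 15.7 and 15.2 at P0. P0 replicate 1 was the highest of the 6 libraries and the other P0 libraries were the lowest. The log2 change was −1.87 (SE 0.89, adjusted p = 0.167 by limma), and −2.92 without P0 replicate 1 (SE 0.25, adjusted p = 0.000621 by limma). At Mir30c-1, set against its own passenger miR-30c-1-3p, which had 9.59 to 34.3 TPM, the ratio was 536, 248 and 328 at E14.5 and 175, 52.6 and 38.4 at P0. The stages did not overlap there, and the log2 change was −2.32 (SE 0.67, adjusted p = 0.0991 by limma), or −2.97 without P0 replicate 1 (SE 0.41, adjusted p = 0.00211 by limma). Both miR-30c ratios use the same guide value, so they are not independent of each other. The reads of that guide do not tell its loci apart, so neither ratio gives the arm use of 1 hairpin alone. In the change of the ratio, the hairpins of miR-30c-1, miR-30b and miR-30c-2 ranked 5, 11 and 13 from the lowest of the 146.

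The other 3 hairpins had smaller changes or one of the opposite sign, and none was called. At Mir30a the ratio was 4.73, 4.52 and 3.87 at E14.5 and 5.26, 3.92 and 3.92 at P0, with a log2 change of −0.01 (SE 0.26, adjusted p = 0.989 by limma). At Mir30e it was 8.71, 8.59 and 7.52 at E14.5 and 6.62, 7.88 and 5.88 at P0, with a log2 change of −0.29 (SE 0.25, adjusted p = 0.401 by limma). At Mir30d it was 35.4, 94.3 and 50.3 at E14.5 and 92.2, 120.3 and 137 at P0, with a log2 change of 1.06 (SE 0.46, adjusted p = 0.144 by limma). None of these 3 passed the threshold without P0 replicate 1 either (adjusted limma p of 0.525, 0.322 and 0.0604).

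**Figure D4:**
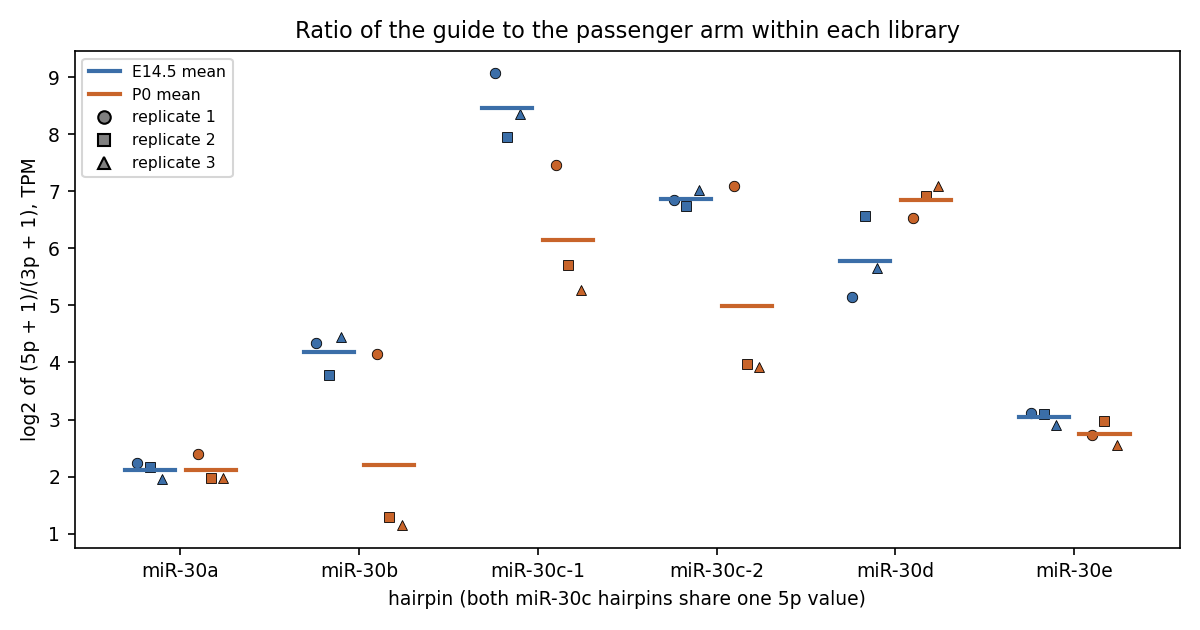
Log2 ratio of the 5p to the 3p arm at each miR-30 hairpin in each library, with E14.5 in blue, P0 in orange, a marker shape for each replicate and a bar for the stage mean. Both miR-30c hairpins use the same guide value. The ratios at miR-30b and both miR-30c hairpins are lowest in P0 replicates 2 and 3, those at miR-30a and miR-30e differ little between libraries, and that at miR-30d is highest in P0 replicates 2 and 3.

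In the authors' deposited table none of the 9 members passed an adjusted p of 0.05, beside 10.4% of its 1034 miRNAs, and 3 had an unadjusted p under 0.05. These 3 in the authors' deposited table were miR-30d-5p with a log2 fold change of 1.51 (SE 0.57, adjusted p = 0.0506), miR-30b-5p with −1.73 (SE 0.74, adjusted p = 0.0900) and miR-30c-5p with −1.60 (SE 0.71, adjusted p = 0.104). The other 6 members had log2 fold changes of 0.08 to 0.68 in the authors' deposited table.

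One further miRNA of the table, miR-384-5p, carries the same seed as the printed guides and is not a listed member.
miR-384-5p: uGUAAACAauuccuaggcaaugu
It shares the first 8 bases with miR-30a-5p and is encoded between annotated genes on the minus strand at chrX:105344332-105344354. It had 49.1, 75.9 and 54.8 TPM at E14.5 and 22.7, 1.07 and 2.31 TPM at P0, without overlap between the stages. It fell in TPM, with a log2 fold change of −3.46 (SE 0.82, adjusted p = 0.00879 by limma), and had −2.37 after scaling (SE 0.78, adjusted p = 0.0741 by limma). Without P0 replicate 1 it fell on both scales, by limma, at −4.51 in TPM (adjusted p = 2.28e-05) and −3.29 after scaling (adjusted p = 0.00111). Without P0 replicate 2 it was −2.76 in TPM (adjusted p = 0.0301 by limma) and −1.73 after scaling (adjusted p = 0.229 by limma). In TPM the call was lost without E14.5 replicate 3 (adjusted p = 0.0510 by limma). Its highest value, 75.9 TPM, stood beside guide sums of 8659 TPM or more.

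The miRNAs most like the guides in their course over the 6 libraries were miR-340-5p, miR-322-5p, let-7g-5p, miR-34a-5p and miR-195a-5p. Likeness was the root-mean-square difference of mean-centred log2(TPM + 1) from the average of the 5 guides, over the 217 miRNAs that averaged 100 TPM or more. The differences were 0.10, 0.12, 0.18, 0.21 and 0.23 for these 5, against a median of 0.90 over the 217. The guides themselves lay at 0.27 (miR-30e-5p), 0.43 (miR-30a-5p), 0.81 (miR-30c-5p), 0.98 (miR-30b-5p) and 1.24 (miR-30d-5p). miR-340-5p, the nearest, had 1484, 983 and 1028 TPM at E14.5 and 1188, 257 and 260 TPM at P0, with P0 replicate 1 within the E14.5 range as in most guides.

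Since these were bulk samples, fewer cells of a type and less RNA per cell cannot be told apart. Markers of other kidney cells are given beside the 32.8% of all miRNAs called lower in TPM and the 5.22% called lower after scaling. The 5 miR-200 family miRNAs, markers of ureteric bud and other epithelium, summed to 4122 to 23183 TPM at E14.5 and 500.2 to 1542 TPM at P0, and all 5 fell in TPM and 3 after scaling. Of the 5 kidney tubule markers listed, 4 were in the table, summing to 766 to 1525 TPM at E14.5 and to 1009, 264 and 315 TPM at P0, and 3 were tested. As in the guide sum, P0 replicate 1 alone among the P0 libraries lay within the E14.5 range of this list, and its part in the miR-30 values was not tested. One of these 3, miR-204-5p, fell in TPM (log2 fold change −1.96, adjusted p = 0.0193 by limma) and none changed after scaling, while miR-215-5p was at 0 in 1 library.

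The markers of the remaining cell types also had lower TPM sums at P0. The 2 endothelial markers, both arms of miR-126a, summed to 26608 to 44921 TPM at E14.5 and 5634 to 8158 TPM at P0, and the 8 stromal markers to 84590 to 101836 and 33449 to 46030 TPM. The 5 erythroid markers, of which miR-486a-3p was at 0 in 2 libraries, summed to 242 to 417 and 128 to 194 TPM, and the 5 leukocyte markers to 797 to 1540 and 507 to 751 TPM. In TPM 2 of 2 endothelial, 6 of 8 stromal, 1 of 5 erythroid and 1 of 5 leukocyte miRNAs were called lower and none higher, the last 2 lists below the 32.8% of all miRNAs. After scaling 1 endothelial miRNA was called lower and 1 leukocyte miRNA higher. The median log2 fold change after scaling was −1.80 for the endothelial and −0.96 for the stromal list, and turned positive for the erythroid (0.17) and leukocyte (0.41) lists, which had −1.07 and −0.86 in TPM. Erythroid members went both ways on both scales, with miR-451a at −2.70 in TPM and −1.43 after scaling and miR-486a-5p at 0.76 and 2.04. The endothelial arms miR-126a-3p and miR-126a-5p had −0.68 and −2.93 after scaling. The part of these cells in the miR-30 values was not tested.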

How the data were processed

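Small RNA libraries (QIAseq miRNA kit, per the labels' protocols) were analysed from 3 E14.5 and 3 P0 samples. The authors deposited 1 table of 1104 rows with a value per sample, the mean normalised signal (baseMean), a log2 fold change and standard error, the test's statistic (a score), and a p-value and adjusted p-value. The submitters' processing notes name featureCounts, DESeq2 1.26.0 and build mm10; the aligner and the treatment of molecular tags are not given in the sources used here. The header names no unit for the sample columns. They were taken as TPM because each sums to 1000000, and each deposited value times its length (end minus start) was a whole multiple of 1 step per library in 100% of values (relative tolerance 1e-06), which gave whole reads.

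Stage was fitted with limma 3.58.1 (R 4.3.3, mean-variance trend) on log2(TPM + 1) over the 670 miRNAs that averaged 1 TPM or more, without further terms, and adjusted by the Benjamini-Hochberg method over all miRNAs tested (threshold 0.05). Fold changes on this scale understate changes of low miRNAs. Arm ratios were fitted likewise over 146 hairpins, with miR-30c-5p set against each numbered passenger. Single values were tested with exact permutation tests (SciPy 1.17.1). The fits were tested on simulated data with a log2 change of 2. The stage fit recovered 97% of 200 changed miRNAs and called 2.55% of the unchanged ones. The arm-ratio fit recovered 100% of 29 changed hairpins and called 0% of the others. The simulated data held no divergent library such as P0 replicate 1, so they do not show how the fits behave with one. All 9 members are named, with miR-384-5p, 2 unlisted arms and the 5 most alike miRNAs by fixed rules. Members and lists were chosen with earlier results of these data known.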

Additional observations from a re-analysis of the deposited data

How the results depend on the processing

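The scaling decided the direction of 6 members. The log2 fold changes of miR-30a-5p, miR-30a-3p, miR-30c-2-3p, miR-30d-3p, miR-30e-5p and miR-30e-3p, negative in TPM, were 0.086, 0.10, 0.25, 0.76, 0.0796 and 0.37 with median-of-ratios scaling, 0.21, 0.22, 0.37, 0.88, 0.20 and 0.49 with upper-quartile scaling, and 0.12, 0.12, 0.30, 0.88, 0.11 and 0.40 with limma-voom on the recovered reads. The log2 ratio of the summed guides and passengers turned to 0.0834 and 0.19 with median-of-ratios scaling. miR-30b-5p and miR-30c-5p stayed negative and miR-30d-5p positive in all these fits. With the same 3 settings 1 member was called each time, against 2 in TPM, and 73, 63 and 28 of all miRNAs, against 229. The number stayed at 2 members when the filter was dropped or raised to 10 TPM, when 0.1 was the pseudocount, when same-named rows were summed, and when the most abundant miRNA was left out.

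Leaving out 1 library gave 0 to 7 called members and 66 to 410 called miRNAs in TPM, and 0 to 3 members and 0 to 324 miRNAs after median-of-ratios scaling (settings added after seeing the data). Where limma made 0 calls over all miRNAs after scaling, 136 to 143 had an unadjusted p under 0.05. The highest counts were those without P0 replicate 1. After scaling, the leave-out log2 fold change ran from −0.16 to 0.47 for miR-30a-5p, −0.18 to 0.42 for miR-30a-3p and −0.22 to 0.32 for miR-30e-5p. The log2 change in arm ratio ran from −0.15 to 0.0607 at miR-30a, −2.96 to −1.46 at miR-30b, −2.97 to −1.87 at miR-30c-1 and −2.92 to −1.33 at miR-30c-2, and 0 to 84 hairpins were called by limma (21 or more at an unadjusted p under 0.05). With both arms at 100 TPM, 3 of 44 hairpins were called, and neither of the 2 miR-30 hairpins that passed this filter (miR-30a and miR-30e) was among them. The change in guide share ran from −2.41 to 2.65 percentage points for miR-30a-5p and −0.43 to 1.09 for miR-30e-5p. With same-named rows summed these changes were 3.70 and 4.22. Over all settings, the log2 fold changes of single members kept direction and call in 144 cases, passed the threshold anew in 11, lost it in 19 and changed sign in 24. The causes were not tested.

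Same-numbered samples had deviations from their stage means that correlated at 0.19, 0.18 and 0.04. Samples of unlike number correlated at −0.18 to 0.08. The highest of these, P0 replicate 3 with E14.5 replicate 2, exceeded the value of P0 replicate 3 with its own number. The main fit had no block because same-numbered samples were of different litters, not because of these correlations. With the replicate block 3 members were called in TPM (miR-30a-5p besides the 2, limma adjusted p = 0.0497) and 247 of all miRNAs, 1 member and 77 of all miRNAs with median-of-ratios scaling, and 0 hairpins (limma, 43 at an unadjusted p under 0.05). The GC correction was not run, because GC content was taken for 6 of 9 members (66.7%), which voids it.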
